A study of Mus musculus with 12 samples.

Results

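The 55 genes described here encode the machinery that copies DNA in S phase and the enzymes that make its building blocks. They were picked by name, as genes of origin licensing, the replisome, deoxynucleotide (dNTP) synthesis and replication-coupled chromatin, and a mean over the normalized counts of 10 or more was required. All 55 were found among the 14264 genes of the deposited tables. Their means ran from 82.0 for Orc1 to 9141 for Pcna, so that none lay near the minimum. They were measured in mouse bone marrow-derived macrophages, isolated ex vivo per the labels, by sequencing of polyadenylated RNA. The 4 groups of 3 libraries were shCTRL unstimulated, shMOF unstimulated, shCTRL given 100 ng/ml of lipopolysaccharide (LPS) for 3 h, and shMOF with the same LPS treatment. The labels call the shCTRL genotype WT (shRNA control) and the shMOF genotype MOF depletion (shMOF Knockdown). MOF is the lysine acetyltransferase encoded by Kat8. Every group therefore carried a hairpin. The labels name shMOF, and whether it is a single hairpin or a pool is not stated there. The sources used here do not state strain, sex or age, how the hairpins were delivered, or whether marrow was pooled.

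Replication starts with licensing, in which the origin recognition complex (ORC) together with CDC6 and CDT1 loads the MCM helicase onto DNA in G1. Kinases and firing factors then turn the loaded helicase into an active fork with CDC45 and the GINS complex, and polymerases alpha, delta and epsilon synthesize the strands with the clamp PCNA. Many of these genes are known targets of the E2F factors, and macrophages grown from marrow divide in response to CSF1 until they come to rest. LPS is known to stop their proliferation.

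The deposited tables hold, for each gene and LPS state, a log2 fold change of shMOF over shCTRL with its standard error (SE) and a Benjamini-Hochberg adjusted p of the Wald test, which the authors made with DESeq2 per the submitters' processing notes. They hold no values per library, so the level in each library and its depth are unknown here. A call means an adjusted p under 0.05. Rose and fell describe shMOF against shCTRL within the same LPS state. No value here compares LPS with unstimulated cells of the same hairpin. The labels number the libraries but name no separate animal or culture for each. P-values thus measure only the spread between these samples, which may be technical. Kat8 itself had a log2 fold change of -2.25 (SE 0.10) unstimulated and -2.31 (SE 0.13) with LPS in the authors' deposited tables. In bulk RNA, fewer dividing cells and less RNA of these genes per cell cannot be told apart. Of 10 macrophage markers 9 were called higher in unstimulated knockdown cells in the authors' deposited table, with mean normalized counts between 1233 for Mertk and 259735 for Lyz2. Among 5 measured haematopoietic progenitor markers 3 were called lower, Kit, Cd34 and Ly6a, and 1 higher, Cd48, in the same deposited table. Their means ran from 14.9 for Kit to 4979 for Cd48, while Myb and Gata2 were under 10. With LPS 7 macrophage markers were called higher and 1 lower, and 2 progenitor markers were called lower and 1 higher in the authors' deposited table. S100a8, the 1 of 8 neutrophil lineage markers with a mean of at least 10 (21.0), was called in neither deposited table, and the same held for the lymphocyte marker Cd4. Of 6 stromal markers 3 were called higher unstimulated and 4 with LPS in the authors' deposited tables, and of 3 dendritic cell markers 2 were called higher with LPS. The part of these markers in the results below was not tested. For scale, 21.3% of all genes were called higher and 17.8% lower unstimulated, and 28.1% and 20% with LPS.

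Promoters of 7 of the genes are printed here to show where the letters best known for this gene class lie, or are missing, in genes whose values then went different ways. They run from 250 bases before the start of transcription through the first 30 transcribed bases, 5′ to 3′ on the gene's strand, from RefSeq (GRCm38.p6). Capitals mark E2F-type letters, searched on both strands. The search took TTCCCGC and its variants, in which the middle letters differ: TTGGCGC was the next, then came TTCGCGC, and last was TTGCCGC. Mcm5 and Mcm6 are subunits of the helicase, Rrm1 and Tk1 serve dNTP supply and Uhrf1 serves DNA methylation at the fork. Rfc3 was called higher in knockdown than in control cells with LPS, and Orc3 was not called in either state, as given further on. They lie at chr8:75109259-75109538 (plus), chr1:128359676-128359955 (minus), chr7:102441445-102441724 (plus), chr17:56303087-56303366 (plus), chr11:117825985-117826264 (minus), chr5:151651179-151651458 (minus) and chr4:34614913-34615192 (minus), in the order Mcm5, Mcm6, Rrm1, Uhrf1, Tk1, Rfc3 and Orc3.
Mcm5: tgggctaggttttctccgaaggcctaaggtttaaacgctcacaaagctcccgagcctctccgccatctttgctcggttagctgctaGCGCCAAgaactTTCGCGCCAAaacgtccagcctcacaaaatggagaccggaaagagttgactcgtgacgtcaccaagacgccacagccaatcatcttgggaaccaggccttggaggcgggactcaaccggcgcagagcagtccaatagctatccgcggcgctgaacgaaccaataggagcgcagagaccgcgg
Mcm6: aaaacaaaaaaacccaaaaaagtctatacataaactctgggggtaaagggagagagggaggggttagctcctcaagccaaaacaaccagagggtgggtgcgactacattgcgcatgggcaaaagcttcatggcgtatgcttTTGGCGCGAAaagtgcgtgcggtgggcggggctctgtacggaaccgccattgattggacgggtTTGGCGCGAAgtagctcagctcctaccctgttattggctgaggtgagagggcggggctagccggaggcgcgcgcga
Rrm1: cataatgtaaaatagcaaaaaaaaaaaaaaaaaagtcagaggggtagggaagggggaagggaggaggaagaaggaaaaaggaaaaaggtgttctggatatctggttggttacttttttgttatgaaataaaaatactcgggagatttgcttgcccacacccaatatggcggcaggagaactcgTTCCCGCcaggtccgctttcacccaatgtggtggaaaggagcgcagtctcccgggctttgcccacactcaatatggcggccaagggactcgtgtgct
Uhrf1: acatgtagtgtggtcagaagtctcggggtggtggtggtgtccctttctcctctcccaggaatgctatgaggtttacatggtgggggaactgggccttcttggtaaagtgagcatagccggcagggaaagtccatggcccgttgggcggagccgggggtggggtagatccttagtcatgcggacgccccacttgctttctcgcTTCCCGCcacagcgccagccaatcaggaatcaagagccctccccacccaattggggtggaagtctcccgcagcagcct
Tk1: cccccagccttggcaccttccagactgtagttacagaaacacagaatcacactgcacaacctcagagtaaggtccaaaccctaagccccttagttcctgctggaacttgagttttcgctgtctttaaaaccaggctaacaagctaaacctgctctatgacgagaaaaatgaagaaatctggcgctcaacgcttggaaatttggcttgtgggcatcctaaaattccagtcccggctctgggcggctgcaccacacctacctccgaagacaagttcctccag
Rfc3: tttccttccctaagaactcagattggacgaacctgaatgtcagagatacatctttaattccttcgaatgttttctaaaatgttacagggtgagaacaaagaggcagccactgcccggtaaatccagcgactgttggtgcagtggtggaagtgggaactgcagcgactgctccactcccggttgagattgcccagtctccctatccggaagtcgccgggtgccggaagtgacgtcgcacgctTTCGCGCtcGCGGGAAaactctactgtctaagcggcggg
Orc3: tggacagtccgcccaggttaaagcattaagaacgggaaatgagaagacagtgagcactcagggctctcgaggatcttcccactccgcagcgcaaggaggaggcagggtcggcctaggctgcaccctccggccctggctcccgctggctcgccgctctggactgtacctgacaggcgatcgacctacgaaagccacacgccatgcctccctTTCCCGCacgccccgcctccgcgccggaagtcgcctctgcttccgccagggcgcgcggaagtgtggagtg

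The Mcm6 promoter held overlapping pairs of these letters, from -109 to -100 and from -46 to -37, counted from +1 at the start of transcription. In the Mcm5 promoter they lay from -164 to -158 and from -152 to -143, in Rrm1 from -67 to -61 and in Uhrf1 from -48 to -42. The Rfc3 promoter held them from -9 to -3 and from 1 to 7, and the Orc3 promoter from -40 to -34. No such letters were found in the Tk1 window, which says nothing about the factor. RefSeq promoters matched 46 of the 55 genes by symbol. In the full windows, with 50 bases after the start, 29 of the 46 genes (63.0%) had E2F-type letters in at least 1 promoter. The share was 19.4% over 9346 measured genes with a promoter and 9.57% over all 32851 promoters of the same length. CCAAT was present in 27 of the 46 genes (58.7%), against 42.8% of the measured genes. TTTGAA or TTCGAA, the letters of the CHR element of mitotic genes, were present in 9 genes (19.6%), against 16.5%. A match is a description of letters and not a binding site.

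In unstimulated macrophages, nearly all of the 55 genes were lower after MOF knockdown. Of the 55 genes 51 fell and 0 rose in the authors' deposited table, also at an unadjusted p under 0.05, where the authors' DESeq2 test called 17.8% of all 14264 genes lower and 21.3% higher. The median log2 fold change of the 55 genes was -0.83, against 0.03 over the 12994 genes with a mean of at least 10. A fall of at least 2-fold was called for 21 of the 55 (2.57% of all genes), and a rise of that size for 0 (0.827% of all genes). Unstimulated, the lowest medians were in dNTP synthesis, replication-coupled chromatin and firing, and those nearest to 0 in ORC and the clamp with its loader, as the plot of effects by gene shows.

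**Figure D1:**
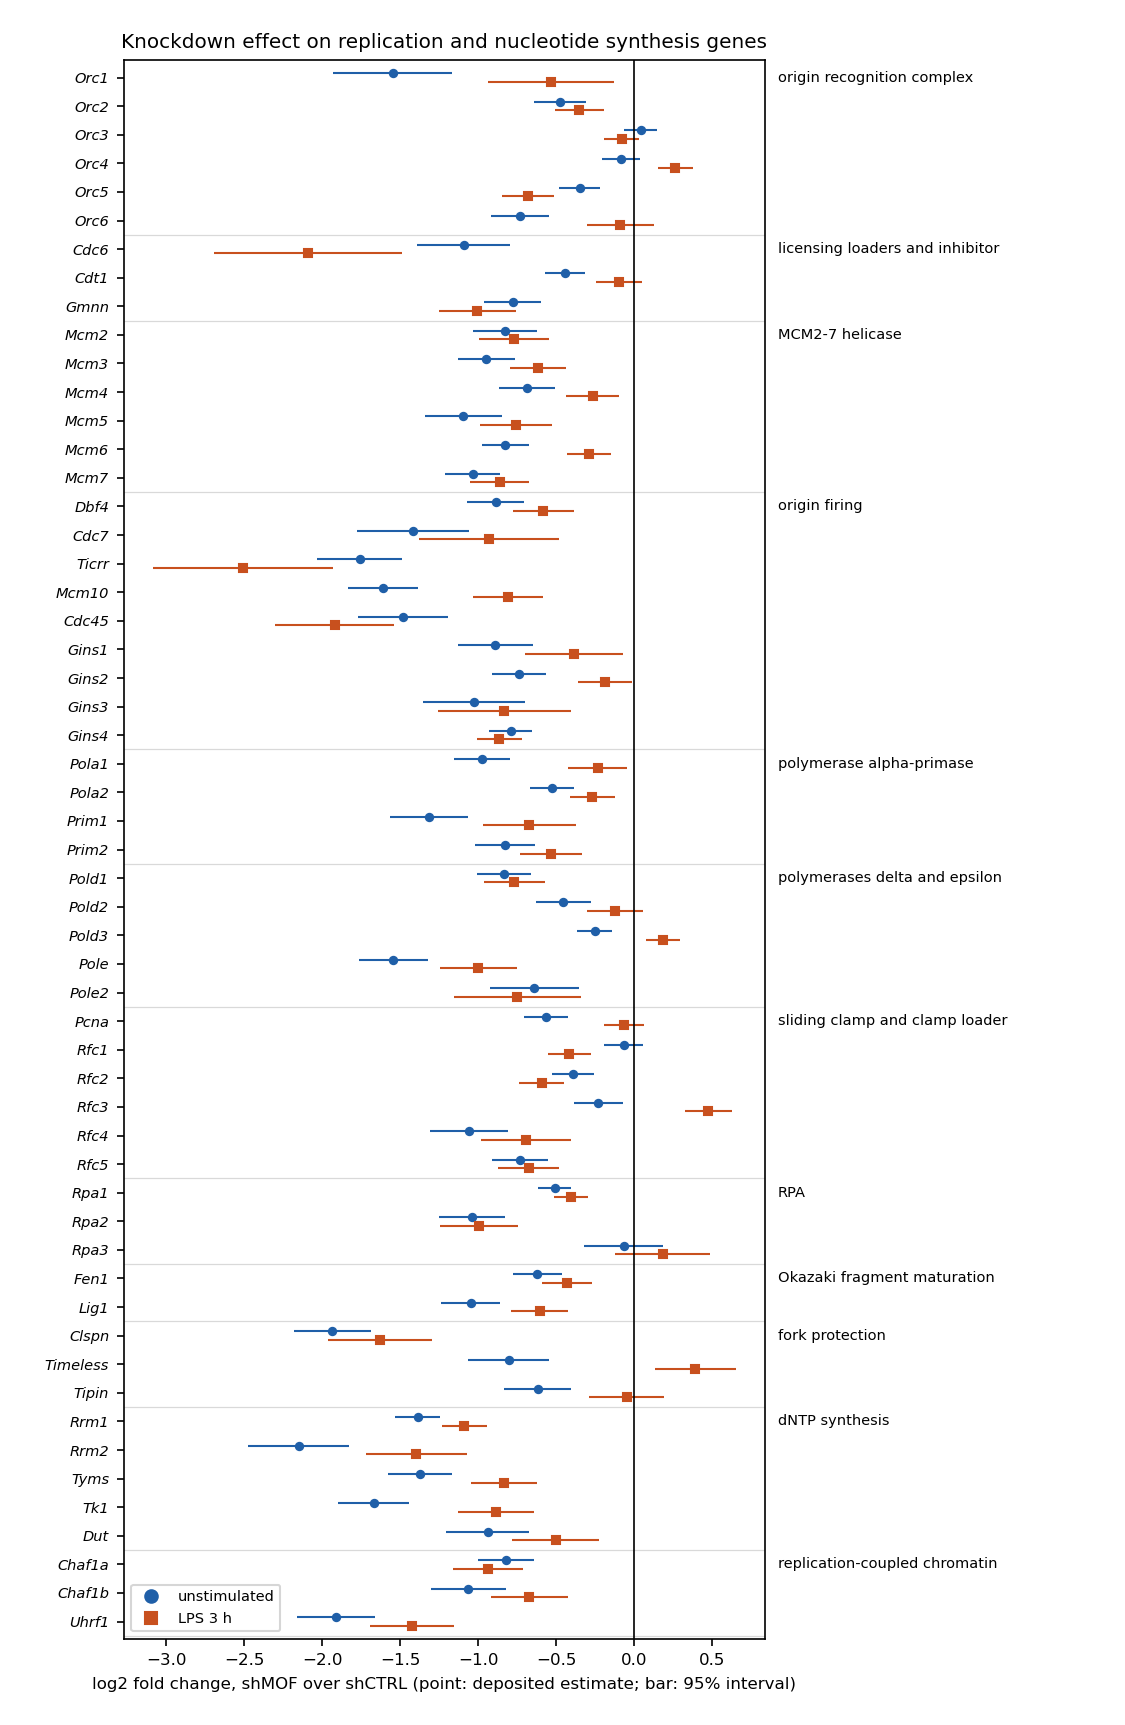
Log2 fold change of shMOF over shCTRL (x axis) for the 55 genes (y axis), grouped by role as written at the right; blue circles are unstimulated cells, orange squares LPS 3 h, and bars are 95% intervals from the deposited SE. Most points lie left of 0 in both states, and Rfc3, Timeless, Pold3, Orc4 and Rpa3 (the last not called) lie right of 0 with LPS.

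Enzymes of dNTP supply had the lowest median of the roles, -1.39, and all 5 fell. Rrm2, the small subunit of ribonucleotide reductase, which converts ribonucleotides to deoxyribonucleotides, was at -2.15 (SE 0.17, adjusted p = 9.61e-37), or 0.225-fold of the control level, in the authors' deposited table. It had the 58th lowest value of the 12994 genes. Its partner Rrm1, the large subunit, was at -1.39 (SE 0.07) per the authors' deposited table. The dTTP pool is fed by Tk1, which salvages thymidine, and by Tyms, thymidylate synthase, which makes dTMP from dUMP. Tk1 had -1.67 (SE 0.12) and Tyms -1.37 (SE 0.11) per the authors' deposited table. Dut, the dUTPase that keeps uracil out of DNA, had the smallest fall of the group, -0.94 (SE 0.14), in the same deposited table.

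Licensing genes did not move as a block. Orc1, the ORC subunit whose level varies over the mammalian cell cycle, was at -1.55 (SE 0.19, adjusted p = 4.08e-14) per the authors' deposited table. Orc6 followed at -0.73 (SE 0.10), Orc2 at -0.48 (SE 0.08) and Orc5 at -0.35 (SE 0.07) per the authors' deposited table. Orc3, at 0.04 (SE 0.05), and Orc4, at -0.08 (SE 0.06), were not called there. The 95% intervals failed to overlap in 12 of the 15 pairs of ORC genes. Of the loaders, Cdc6 had -1.09 (SE 0.15) and Cdt1 -0.44 (SE 0.06), and Gmnn, which encodes the CDT1 inhibitor geminin, had -0.78 (SE 0.09) per the authors' deposited table. The Orc2 value carries a limit, since 29.8% of its exon bases are shared with Nif3l1 on the opposite strand and the sources used here do not state whether counting used the strand. Nif3l1 was not called, at -0.01 (SE 0.08) per the authors' deposited table. Of the 55 genes 13 share at least 5% of their exon bases with a gene on the opposite strand, and 4 at least 25%.

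The 6 subunits of the MCM2-7 helicase, which form a ring, fell within a narrow range. They lay between -0.69 (SE 0.09) for Mcm4 and -1.09 (SE 0.13) for Mcm5 in the authors' deposited table, with Mcm7 at -1.04 (SE 0.09) and Mcm3 at -0.95 (SE 0.09). Mcm2 was at -0.83 (SE 0.11) and Mcm6 at -0.82 (SE 0.08) per the authors' deposited table. In 0 of the 15 pairs did the 95% intervals fail to overlap. Scaled per kb of exon, Mcm6 had 751.5 normalized counts per kb and the other subunits between 114.1 for Mcm2 and 319.0 for Mcm4, as means over libraries that the deposited tables do not name. Pcna had the highest such level of the 55 genes, 3809 per kb, and Ticrr the lowest, 10.5 per kb.

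Firing factors all fell, 9 of 9. Ticrr (treslin), which brings CDC45 to origins, had -1.76 (SE 0.14), Mcm10 -1.61 (SE 0.11) and Cdc45 -1.48 (SE 0.15) per the authors' deposited table. The kinase gene Cdc7 was at -1.42 (SE 0.18) and its activator Dbf4 at -0.89 (SE 0.09) per the authors' deposited table. The 4 GINS genes, whose products join the active helicase, lay between -0.74 (SE 0.09) for Gins2 and -1.03 (SE 0.17) for Gins3 in the authors' deposited table. Gins2 shares 67.3% of its exon bases with Gse1 on the opposite strand, which was at 0.07 (SE 0.08) unstimulated and 0.23 (SE 0.07) with LPS in the authors' deposited tables.

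At the fork, the catalytic subunit of polymerase epsilon, Pole, had -1.54 (SE 0.11, adjusted p = 1.52e-40) per the authors' deposited table, while its partner Pole2 had -0.64 (SE 0.15). The same contrast was seen for polymerase delta, with the catalytic Pold1 at -0.84 (SE 0.09) and the accessory Pold2 at -0.45 (SE 0.09) and Pold3 at -0.25 (SE 0.06) per the authors' deposited table. In polymerase alpha-primase, which lays the primers, Prim1 had -1.32 (SE 0.13), Pola1 -0.98 (SE 0.09), Prim2 -0.83 (SE 0.10) and Pola2 -0.53 (SE 0.07) per the authors' deposited table. Pcna, the sliding clamp, fell to 0.676-fold, at -0.57 (SE 0.07) per the authors' deposited table. Its loader ranged from Rfc4 at -1.06 (SE 0.13) and Rfc5 at -0.73 (SE 0.09) to Rfc3 at -0.23 (SE 0.08) and Rfc1, not called, at -0.07 (SE 0.06) per the authors' deposited table. Rfc2 was at -0.39 (SE 0.07) per the authors' deposited table. Of the RPA trimer, which coats unwound DNA, Rpa2 had -1.04 (SE 0.11), Rpa1 -0.51 (SE 0.05) and Rpa3 -0.07 (SE 0.13), not called, in the authors' deposited table.

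Genes that finish and protect the new strand fell too. Lig1, the ligase that joins Okazaki fragments, had -1.05 (SE 0.10) and the flap nuclease gene Fen1 -0.62 (SE 0.08) per the authors' deposited table. Fen1 shares 78.8% of its exon bases with the antisense gene Gm10143, whose mean normalized count was 6.21. Clspn (claspin), which links the fork to the checkpoint kinase CHK1, had -1.94 (SE 0.13, adjusted p = 2.65e-51) per the authors' deposited table. Its companions at the fork, Timeless and Tipin, had -0.80 (SE 0.13) and -0.62 (SE 0.11) per the authors' deposited table. Uhrf1, which brings the methyltransferase DNMT1 to newly copied DNA, had -1.91 (SE 0.13) per the authors' deposited table. The subunit genes of the histone chaperone CAF-1, Chaf1b and Chaf1a, had -1.06 (SE 0.12) and -0.82 (SE 0.09) per the authors' deposited table. Chaf1a shares 52.5% of its exon bases with Ubxn6 on the opposite strand, which was at 0.28 (SE 0.06) per the authors' deposited table.

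With LPS for 3 h, most of the genes were still lower in knockdown cells. Of the 55 genes 43 fell and 4 rose in the authors' deposited table, where 20% of 13987 genes tested were called lower and 28.1% higher. The median was -0.61, against 0.03 over all genes with a mean of at least 10. A fall of at least 2-fold was called for 8 genes (2.77% of all genes), against 21 unstimulated, and a rise of that size for 0 (2.19% of all genes). The genes that fell in both states numbered 42, and 9.47% of all genes did so. Another 6 fell unstimulated and were not called with LPS, namely Orc6, Cdt1, Gins2, Pold2, Pcna and Tipin. Of these, Gins2 was called lower with LPS once fold changes were centred on the median of all genes, at -0.22 (adjusted p = 0.0316, against 0.0675 without centring and 1 when tested against changes of up to 0.25). Orc3 and Rpa3 were called in neither state.

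The genes that lost their call lay near the control level. Pcna had -0.06 (SE 0.06), Cdt1 -0.10 (SE 0.08) and Orc6 -0.09 (SE 0.11) with LPS per the authors' deposited table. Tipin had -0.05 (SE 0.12), Pold2 -0.12 (SE 0.09) and Gins2 -0.19 (SE 0.09) with LPS per the authors' deposited table. Each of these 6 had a called difference between the LPS states. Polymerase alpha-primase fell in all 4 genes but with a median of -0.40, against -0.90 unstimulated, from Prim1 at -0.67 (SE 0.15) to Pola1 at -0.23 (SE 0.10) per the authors' deposited table. Of polymerase delta and epsilon 3 genes fell, with Pold1 at -0.77 (SE 0.10) and Pole2 at -0.75 (SE 0.21) per the authors' deposited table. RPA kept its order, with Rpa2 at -0.99 (SE 0.13), Rpa1 at -0.40 (SE 0.06) and Rpa3 at 0.18 (SE 0.16), not called, in the authors' deposited table. Lig1 had -0.61 (SE 0.09) and Fen1 -0.43 (SE 0.08), and both chromatin assembly genes fell, Chaf1a at -0.94 (SE 0.11) and Chaf1b at -0.67 (SE 0.13), per the authors' deposited table.

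The lowest values with LPS were in genes of helicase loading and activation. Ticrr had -2.51 (SE 0.29, adjusted p = 2.39e-16), or 0.176-fold, in the authors' deposited table, the 8th lowest value of the 12994 genes. Cdc6 was at -2.09 (SE 0.31) and Cdc45 at -1.92 (SE 0.19) per the authors' deposited table. Gmnn stood at -1.01 (SE 0.13) per the authors' deposited table. Clspn at -1.63 (SE 0.17), Uhrf1 at -1.42 (SE 0.14), Rrm2 at -1.40 (SE 0.17) and Rrm1 at -1.09 (SE 0.07) completed the 8 genes with a fall of at least 2-fold in the authors' deposited table. Pole, at 0.501-fold, and Rpa2, at 0.502-fold, lay just outside this size.

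The 4 genes called higher in knockdown cells with LPS belong to different complexes. Only Rfc3 of them kept its call when tested against changes of up to 0.25. Rfc3, a subunit of the clamp loader, had 0.48 (SE 0.08, adjusted p = 4.2e-09) per the authors' deposited table, while Rfc1, Rfc2, Rfc4 and Rfc5 all fell, between -0.41 (SE 0.07) and -0.69 (SE 0.15). Timeless had 0.39 (SE 0.13, adjusted p = 0.00777) and Pold3 0.19 (SE 0.06) per the authors' deposited table. Orc4 had 0.26 (SE 0.06) per the authors' deposited table, and 446 of its exon bases are shared with Acvr2a on the opposite strand, at 0.34 (SE 0.07) per the authors' deposited table. Of the exon bases of Timeless 1.82% are shared with the opposite-strand gene Gm26847, at 1.22 (SE 0.48) with LPS and a mean of 10.7 per the authors' deposited table. Rfc3, Timeless and Pold3 were lower without LPS and higher with it, a pattern held by 2.42% of all genes. Against changes of up to 0.25, only Timeless of these kept its call without LPS, so no gene kept both calls.

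**Figure D2:**
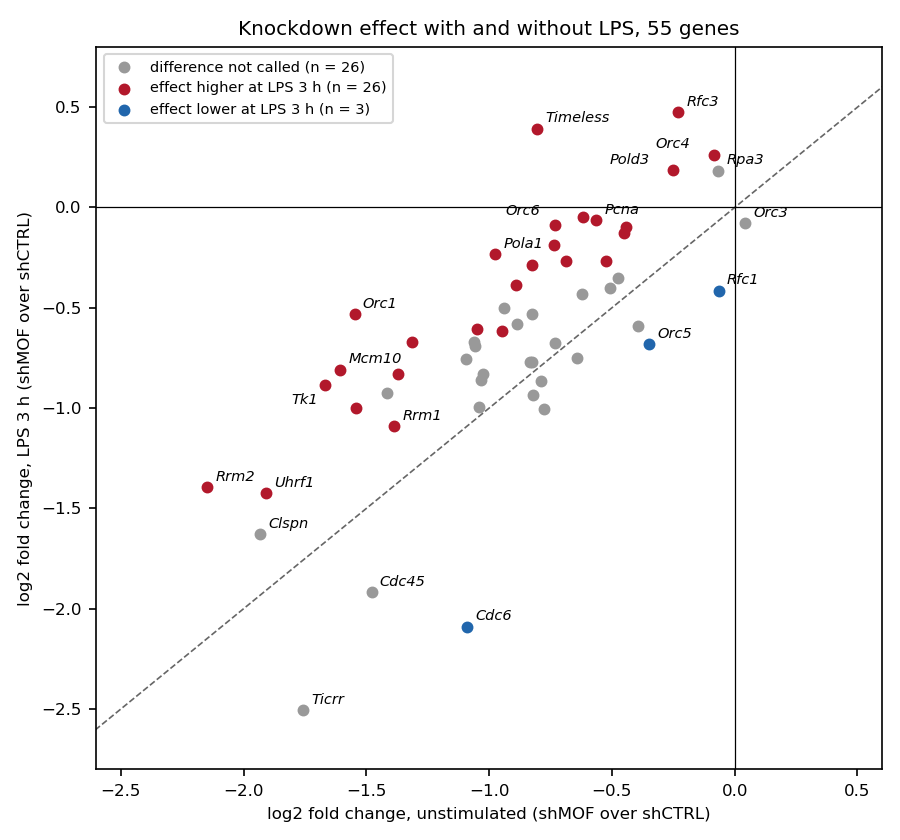
Log2 fold change of shMOF over shCTRL in unstimulated cells (x axis) against LPS 3 h (y axis), 1 point per gene; the dashed line marks equal effects, and colour shows the test of the difference. Of the 55 points 44 lie above the line, as would 6619 of all 12994 genes with a mean of at least 10. Timeless, Rfc3 and Pold3 lie at the upper left among called differences.

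The effect of the knockdown was less negative with LPS for 44 of the 55 genes and more negative for 11. Over all 12994 genes with a mean of at least 10, LPS 3 h minus unstimulated was above 0 for 6619 and below 0 for 6375. Each effect is relative to the control cells of its own LPS state. Whether a difference arose in control or in knockdown cells cannot be told apart here. The difference itself, LPS 3 h minus unstimulated, was tested over 12994 genes with Benjamini-Hochberg adjustment, and 26 of the 55 had a higher and 3 a lower effect with LPS. Tested against differences of up to 0.25, 8 had a higher and 0 a lower effect. Of all genes tested 18.2% had a higher and 12.4% a lower effect. Of the 2520 genes called lower unstimulated with a mean of at least 10, 39.7% had a higher effect with LPS. Of the 51 replication genes called lower, 25 (49.0%) did so. Across the 55 genes the effects in the 2 states, which share no library, had a Pearson's r of 0.73 and a Spearman's rho of 0.75. Over all genes with a mean of at least 10 these were 0.49 and 0.43. Genes are not independent replicates, and these are descriptions.

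Timeless had the largest difference of the 55, 1.20 (SE 0.19, adjusted p = 3.67e-09). It went from 0.573-fold of the unstimulated control to 1.31-fold of the control with LPS. Tipin, which binds TIMELESS, moved the same way by 0.57 (SE 0.16, adjusted p = 0.00308), whereas Clspn did not pass, at 0.31 with a 95% interval from -0.11 to 0.72. Orc1 differed by 1.02 (SE 0.28) and Orc6 by 0.64 (SE 0.15). In the firing group Mcm10 differed by 0.80 (SE 0.16, adjusted p = 8.8e-06), Gins2 by 0.55 (SE 0.13) and Gins1 by 0.51 (SE 0.20). The clamp loader gene Rfc3 had 0.71 (SE 0.11) and the clamp Pcna 0.50 (SE 0.10), from 0.676-fold to 0.956-fold of the control in the same state. Pola1 had 0.74 (SE 0.13) and Prim1 0.64 (SE 0.20).

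All 5 dNTP genes had a less negative value with LPS, and the difference passed for 4 of them. Tk1 differed by 0.78 (SE 0.17, adjusted p = 3.84e-05), Rrm2 by 0.75 (SE 0.23), Tyms by 0.54 (SE 0.15) and Rrm1 by 0.30 (SE 0.10). Dut, at 0.44 (SE 0.20), did not pass (adjusted p = 0.0788 over all genes tested). All 5 still fell with LPS in the authors' deposited table, with Dut the smallest at -0.50 (SE 0.14).

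Of the 6 MCM genes 3 passed the test of the difference. Mcm6 differed by 0.54 (SE 0.11), Mcm4 by 0.42 (SE 0.13) and Mcm3 by 0.33 (SE 0.13). Mcm2 had a difference of 0.06 with a 95% interval from -0.25 to 0.36, Mcm7 of 0.17 from -0.08 to 0.43, and Mcm5 of 0.34 (adjusted p = 0.125), none of which passed. With LPS the subunits lay between -0.27 (SE 0.09) for Mcm4 and -0.86 (SE 0.10) for Mcm7 in the authors' deposited table. There 7 of the 15 pairs had 95% intervals that did not overlap, against 0 unstimulated. Whether pairs differ from each other in their difference was not tested.

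The 3 genes with a lower effect in LPS were Cdc6, Orc5 and Rfc1. Cdc6 differed by -0.999 (SE 0.34, adjusted p = 0.0146), Rfc1 by -0.35 (SE 0.10) and Orc5 by -0.33 (SE 0.11). Cdc6 and Cdt1, both loaders of the helicase, thus had differences of opposite sign, that of Cdt1 being 0.34 (SE 0.10, adjusted p = 0.00327). Ticrr, at -0.75 with an interval from -1.39 to -0.11, and Cdc45, at -0.44 from -0.92 to 0.04, pointed the same way as Cdc6 and did not pass over all genes. The intervals of Ticrr and Cdc45 are wide with LPS, where their SE was 0.29 and 0.19 in the authors' deposited table.

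**Figure D3:**
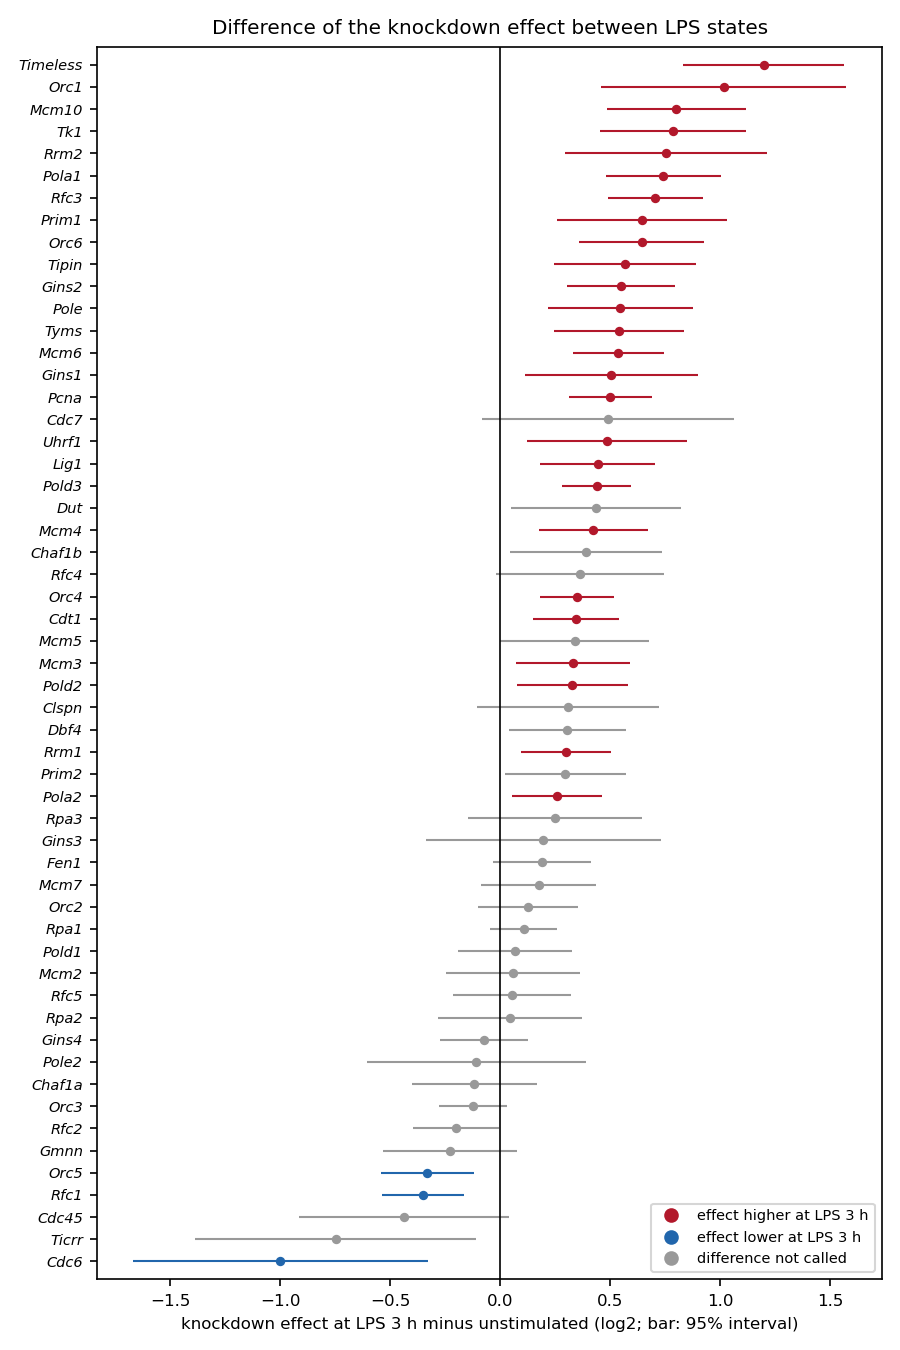
Difference of the knockdown effect, LPS 3 h minus unstimulated, on the log2 scale (x axis) for the 55 genes in order of size (y axis); bars are 95% intervals and colour shows the call. Timeless and Orc1 are at the top and Cdc6 at the bottom, with 26 genes called higher and 3 lower.

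Lists of other genes of the pathway, which hold none of the 55, were counted in the same way. Of 37 other replication factors 24 fell and 2 rose unstimulated, with a median of -0.27, and 16 fell and 7 rose with LPS in the authors' deposited tables. Topoisomerase genes went apart: Top2a, used in dividing cells, had -2.18 (SE 0.10) unstimulated and -1.39 (SE 0.09) with LPS, whereas Top1 rose by 0.41 (SE 0.06) and 1.07 (SE 0.05) per the authors' deposited tables. Mcm8, a helicase gene of recombination, had -0.87 (SE 0.14) and -1.62 (SE 0.20) per the authors' deposited tables. The translesion polymerase gene Polh had -0.95 (SE 0.09) unstimulated and -0.16 (SE 0.10), not called, with LPS in the authors' deposited tables.

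Among 18 genes that control licensing through ubiquitin ligases and cyclin-dependent kinases, 14 fell unstimulated and 13 with LPS, and 0 rose in either state (0 and 1 at an unadjusted p under 0.05 of the authors' DESeq2 test). Dtl, which targets CDT1 for destruction in S phase, had -1.93 (SE 0.11) and -2.08 (SE 0.27) per the authors' deposited tables. Skp2 had -1.13 (SE 0.10) and -1.55 (SE 0.17), and Ccna2, cyclin A2, had -2.24 (SE 0.09) and -1.47 (SE 0.11) per the authors' deposited tables. Of 12 checkpoint genes 10 fell unstimulated and 8 with LPS, and 0 and 1 rose. Chek1, the kinase that claspin serves, had -1.50 (SE 0.16) and -1.03 (SE 0.21) per the authors' deposited tables. Of 13 genes of histone supply and maintenance methylation 11 fell unstimulated and 7 with LPS, while 0 and 3 rose. Slbp, which binds replication-dependent histone mRNA, had -1.41 (SE 0.08) and -0.80 (SE 0.09), and Dnmt1 had -0.47 (SE 0.07) and -0.57 (SE 0.07) per the authors' deposited tables.

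Nucleotide synthesis upstream of the dNTP step had medians closer to 0. Of 13 purine synthesis genes 11 fell unstimulated, with a median of -0.31, and 5 fell and 1 rose with LPS in the authors' deposited tables. Paics had -0.38 (SE 0.06) and -0.06 (SE 0.05), the second not called, and Gart -0.39 (SE 0.08) and -0.42 (SE 0.07) per the authors' deposited tables. Of 5 pyrimidine synthesis genes 4 fell unstimulated and 3 with LPS, and the median was -0.28 and -0.47. The CTP synthase gene Ctps had -0.82 (SE 0.14) unstimulated and -0.01 (SE 0.13), not called, with LPS in the authors' deposited tables. The other 4 had a lower value with LPS than unstimulated. Among them, Umps had -0.27 (SE 0.07) and -0.73 (SE 0.09) per the authors' deposited tables. The test of the difference called 1 of the 5 higher and 1 lower. The remaining list of 21 dNTP supply and turnover genes had 9 lower and 3 higher unstimulated, and 5 and 4 with LPS. Dguok, a mitochondrial kinase of purine deoxynucleosides, rose by 0.76 (SE 0.08) and 0.41 (SE 0.09) per the authors' deposited tables. Tk2, the mitochondrial thymidine kinase, had 0.04 (SE 0.06), not called, and -0.74 (SE 0.07) per the authors' deposited tables.

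Of 19 genes of E2F and pocket proteins, a list that also holds Tfdp and Lin genes, Mybl2 and Foxm1, 12 fell and 1 rose unstimulated. With LPS 12 fell and 4 rose in the authors' deposited tables. The 6 not called unstimulated included E2f1, E2f3 and E2f4. Of these, E2f1 and E2f3 were lower at an unadjusted p under 0.05 of the authors' DESeq2 test. E2f1 was called lower with LPS, at -0.20 (SE 0.06), while E2f3 and E2f4 were not called there, in the authors' deposited table. E2f2 had -1.88 (SE 0.11) and -1.66 (SE 0.24), while the repressor gene E2f8 had -1.80 (SE 0.10) unstimulated and 0.9996 (SE 0.09) with LPS in the authors' deposited tables. The difference for E2f8, 2.80 (SE 0.14), exceeded that of any of the 55 genes. Mki67, a proliferation marker, changed in the same way, from -2.21 (SE 0.07) to 0.83 (SE 0.06) per the authors' deposited tables. The 35 mitotic spindle and cytokinesis genes lay lower than the replication genes, with a median of -2.03 against -0.83 unstimulated and -1.30 against -0.61 with LPS in the authors' deposited tables. Of the 35 mitotic genes 32 fell by at least 2-fold unstimulated and 28 with LPS, against 21 and 8 of the 55 replication genes. No test of the difference between these lists was made. The lists of checkpoint, histone, purine, pyrimidine and mitotic genes, with 0 called higher unstimulated, also had 0 higher at an unadjusted p under 0.05 of the authors' DESeq2 test.

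**Figure D4:**
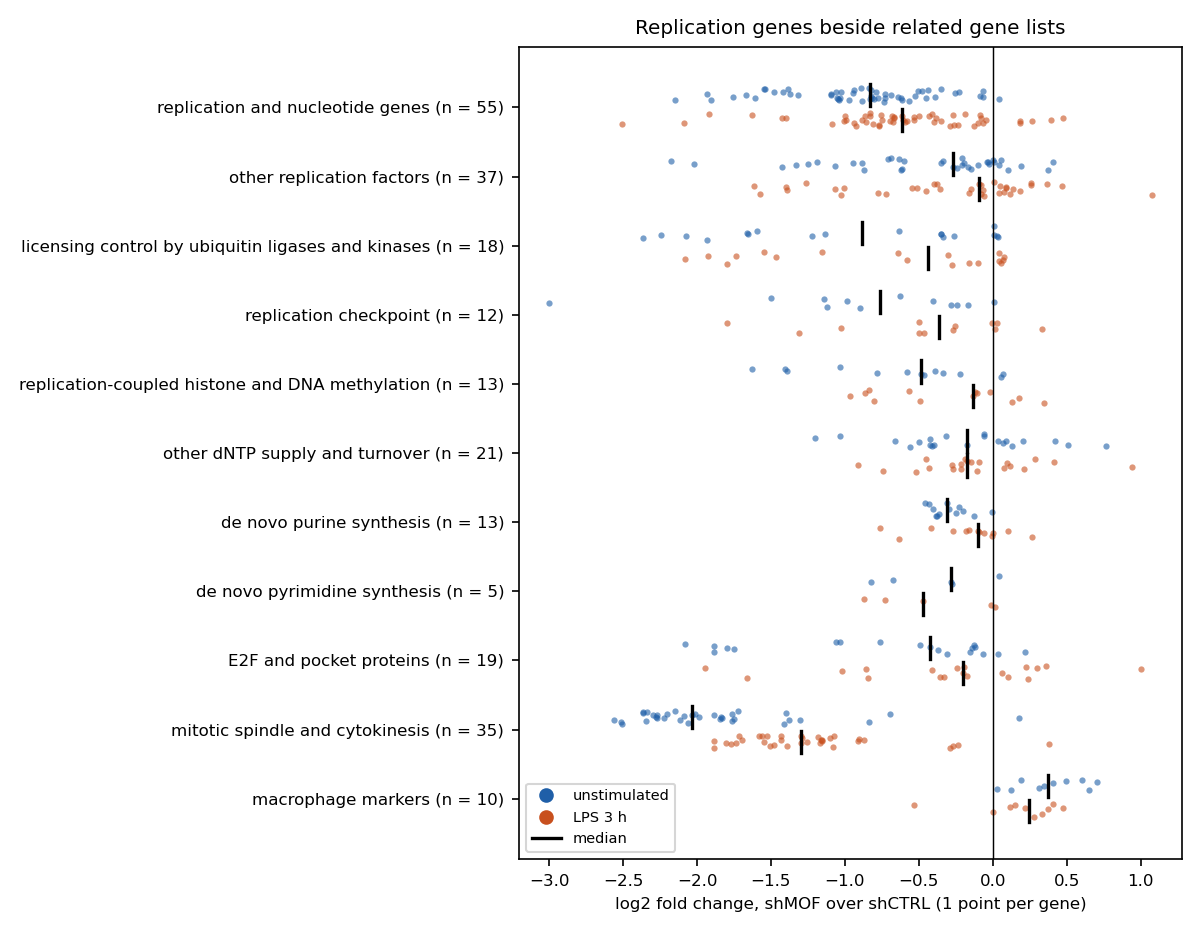
Log2 fold change of shMOF over shCTRL (x axis), 1 point per gene, for the 55 genes and 10 related lists (y axis, with the number measured); blue is unstimulated, orange LPS 3 h, and black bars are medians. The median of the 55 genes is -0.83 and -0.61, that of the mitotic list -2.03 and -1.30, and that of macrophage markers 0.37 and 0.25.

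The 46 matched genes were also described by the letters in their promoters. Genes with E2F-type letters had a median of -1.03 unstimulated and genes without them -0.80, with ranges from -2.15 to 0.04 and from -1.76 to -0.35. With LPS the medians were -0.67 and -0.58. Tk1, with none of the letters in its window, had -1.67 (SE 0.12) unstimulated in the authors' deposited table, against -0.82 (SE 0.08) for Mcm6 and -1.09 (SE 0.13) for Mcm5, which hold overlapping pairs. Rfc3, whose printed promoter holds the letters at -9 and at 1, was at 0.48 (SE 0.08) with LPS there.

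Genes that share a promoter region with a replication gene gave a local comparison. Within 1000 bases, 14 of the 55 genes had a measured protein-coding neighbour that starts on the opposite strand, in GENCODE M21 on GRCm38. Of these 14 neighbours 4 fell, 2 rose and 8 were not called unstimulated in the authors' deposited table, where 17.8% of all genes were called lower and 21.3% higher. Their median was -0.16, against -0.81 for their replication genes. With LPS 6 fell, 5 rose and 3 were not called, with medians of -0.18 and -0.42. Of all genes tested in that state 20% were called lower and 28.1% higher. The 95% intervals did not overlap in 10 pairs unstimulated, in 9 of which the replication gene was the lower. With LPS this held in 8 pairs, in 6 of which the replication gene was the lower.

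Orc1 (chromosome 4, 108579423 to 108614833, plus strand) starts 87 bases from the splicing factor gene Prpf38a. Prpf38a rose by 0.37 (SE 0.08) unstimulated and by 0.80 (SE 0.07) with LPS in the authors' deposited tables, while Orc1 had -1.55 (SE 0.19) and -0.53 (SE 0.21). Cdc45 (chromosome 16, 18780447 to 18811987, minus strand) and Ufd1, a cofactor of the unfoldase VCP, both fell. Ufd1 had -0.40 (SE 0.06) against -1.48 (SE 0.15) for Cdc45 in the authors' deposited table of unstimulated cells. Mcm4 (chromosome 16, 15623897 to 15637400, minus strand) and Prkdc, a kinase gene of DNA end joining, had -0.69 (SE 0.09) and -0.34 (SE 0.09) unstimulated and -0.27 (SE 0.09) and -0.34 (SE 0.10) with LPS in the authors' deposited tables. Orc4, which was higher in knockdown cells with LPS, overlaps the start of Mbd5, at -0.76 (SE 0.12) with LPS per the authors' deposited table. Orc3, which was not called, had a neighbour that fell, Rars2, at -0.22 (SE 0.07) per the authors' deposited table. Annotated starts that lie inside the neighbour give exon overlap, as for Cdc45, which shares 209 exon bases with Ufd1.

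**Figure D5:**
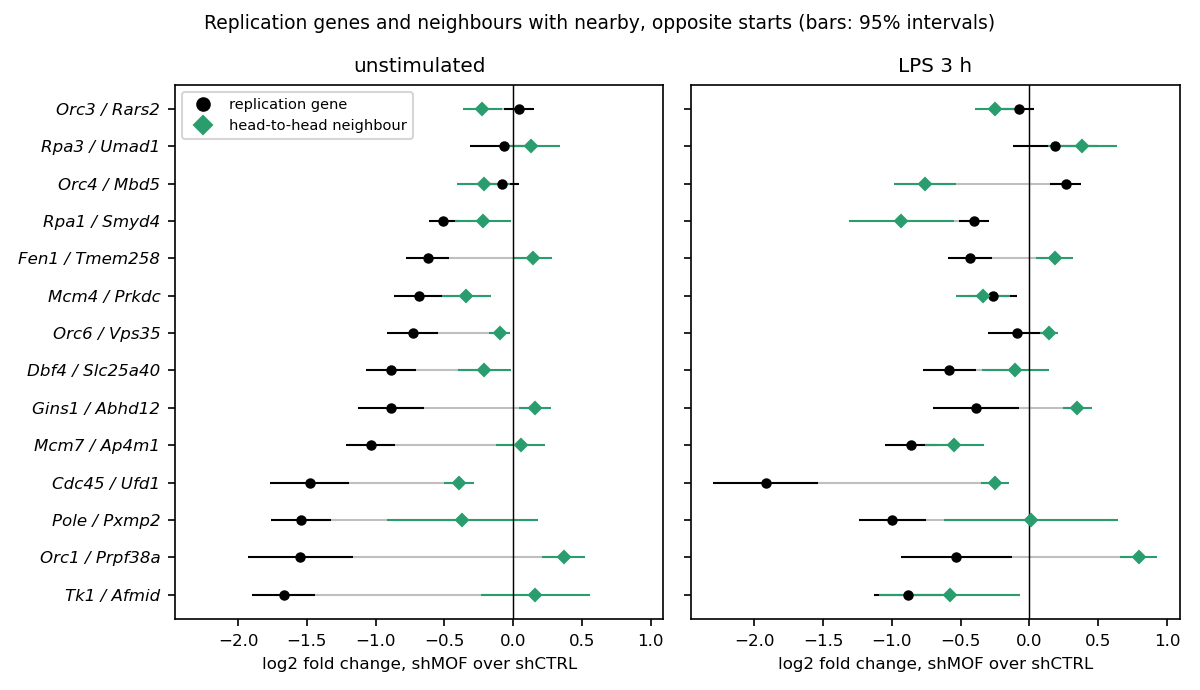
Log2 fold change of shMOF over shCTRL (x axis) for 14 replication genes (black circles) and the gene that starts within 1000 bases on the opposite strand (green diamonds), unstimulated at the left and LPS 3 h at the right; bars are 95% intervals. The replication gene is the lower in 9 of the 10 pairs with separate intervals unstimulated, with Orc3 and Rars2 the exception.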

How the data were processed

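Libraries were made with a stranded mRNA kit from 12 samples, per the labels' protocol; the aligner, the read counter and the annotation release were not given in the sources used here. DESeq2 and mm10 are named in the submitters' processing notes. Each of 2 tables holds 1 knockdown comparison. The authors deposited a mean of normalized counts, a signal with the same value per gene in both tables, a log2 fold change, and as scores its SE and a Wald statistic. The deposited p-value and adjusted p-value matched a two-sided normal p and a Benjamini-Hochberg adjustment to within 2.83e-15 and 1.39e-15. Depth per library is unknown here, and precision is known through the SE only (median over the 55 genes 0.10 unstimulated and 0.11 with LPS).

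To compare the LPS states, the log2 fold change unstimulated was subtracted from that with LPS and divided by the square root of the sum of both squared SEs. Two-sided p-values from the normal distribution were adjusted by Benjamini-Hochberg over 12994 genes, those whose mean was at least 10. It takes the errors as uncorrelated, and the code was tested on simulated data. Intervals are 95% normal intervals of the SE. The 55 genes and all lists were chosen with earlier results of these data known. Of 220 entries in 15 other lists 199 were measured, and the others were not analysed here; Cdc20 is in 2 lists. Beyond the 55, the text names Kat8, Mki67, up to 4 genes with the smallest p per list and state, and genes placed by position. It also names E2f1, E2f3 and E2f4. Not every gene that the rule names is reported here. Levels per kb divide the mean by the union of exon bases in GENCODE M21. Alternatives were centring on the median, other adjustment sets, a minimum log2 change of 1, an adjusted p under 0.01, nulls of 0.25 and errors correlated at -0.2. Python 3.11.15, scipy 1.17.1 and pandas 2.3.3 were used.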

Additional observations from a re-analysis of the deposited data

Results flagged for a closer look

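The effect of the MOF knockdown differed between LPS 3 h and unstimulated cells, by the test of the difference itself, for 29 of the 55 genes. Values are the log2 difference, LPS 3 h minus unstimulated, and each has its place in the account above. For the ORC genes these were Orc1 1.02, Orc6 0.64, Orc4 0.35 and Orc5 -0.33. Of the licensing loader genes, the differences were Cdt1 0.34 and Cdc6 -0.999. Among helicase genes they came to Mcm6 0.54, Mcm4 0.42 and Mcm3 0.33. For the firing genes these were Mcm10 0.80, Gins2 0.55 and Gins1 0.51. Of the polymerase alpha-primase genes, the differences were Pola1 0.74, Prim1 0.64 and Pola2 0.26. Among polymerase delta and epsilon genes they came to Pole 0.55, Pold3 0.44 and Pold2 0.33. For the clamp and clamp loader genes these were Rfc3 0.71, Pcna 0.50 and Rfc1 -0.35. Among Okazaki fragment genes 1 passed, Lig1 0.44. For the fork protection genes these were Timeless 1.20 and Tipin 0.57. Of the dNTP synthesis genes, the differences were Tk1 0.78, Rrm2 0.75, Tyms 0.54 and Rrm1 0.30. Among chromatin genes 1 passed, Uhrf1 0.49. The comparisons behind these values used different libraries, and no values per library were available to look for a library that stands apart.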

How the results depend on the processing

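The counts of lower and higher genes in each state and the medians kept to within 1.5 times or within the median SE when fold changes were centred on the median of all genes (0.03 in both states), under each other adjustment set and at a threshold of 0.01. With a minimum log2 change of 1, 21 of the 55 genes were lower unstimulated, 8 were lower with LPS and 0 were higher with LPS. Tested against changes of up to 0.25 in size, 46 were lower unstimulated, 33 lower and 1 higher with LPS. Tested against differences of up to 0.25, 8 genes had a higher and 0 a lower effect with LPS, where the test without it gave 26 and 3. Errors correlated at -0.2 gave 21 and 3. The threshold of 0.01 ended 1 call unstimulated, 3 with LPS and 7 of the difference. The deposited tables start after the fit, so leaving out libraries was not run, and the effect of any 1 library was not tested. No paired analysis was possible because the deposited tables hold no values per library, although the labels number the libraries alike in each group.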
